A study of Mus musculus with 8 samples.

Results

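The miR-28a and miR-151 hairpins are 2 related microRNA (miRNA) precursors, and each can release a mature miRNA from its 5p and from its 3p side. The 4 mature arms described here are mmu-miR-28a-5p, mmu-miR-28a-3p, mmu-miR-151-5p and mmu-miR-151-3p, of 1978 mature mouse miRNAs in the deposited count table. They were chosen by name, as both arms of the 2 hairpins, with their levels and 5p over 3p ratios in these same libraries already known. Their differences between the age groups are therefore given as a description, with no p-value. Calls printed for them are part of this description and no separate evidence of a difference. Small RNA had been sequenced from CD8+ T cells, the cytotoxic lymphocytes, taken from the spleen of C57BL/6 mice, an inbred laboratory strain. Neonatal mice were 5 to 7 days old (n = 4 libraries) and adult mice 12 weeks old (n = 4 libraries). No other genotype or treatment is named for either group. The cells were enriched on magnetic beads that bind CD8a, which leaves some other cells, and the labels do not say whether a library came from 1 animal or a pool. The spread between libraries may therefore be technical.

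A miRNA hairpin is cut by Drosha and Dicer into a short duplex, of which usually one strand is kept in an Argonaute protein and guides it to target messenger RNAs, while the other is degraded. The seed, bases 2 to 8 of the mature strand, carries most of the target choice, so the 5p and 3p arms of a hairpin address different targets, and the ratio of the arms shows which strand was found more often. miR-28, miR-151 and miR-708 are grouped as one family by sequence. miR-28 is known as a miRNA of germinal centre B cells that is low in B cell lymphomas, and miR-151 as a miRNA made with focal adhesion kinase that has been linked to cell migration in liver cancer.

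Both hairpins lie in introns of protein-coding genes, on the strand of their host. On the mouse build mm10 (GRCm38), the miR-28a hairpin is on chromosome 16 at 24827855 to 24827940, in an intron of Lpp, which encodes a LIM domain protein of focal adhesions. The miR-151 hairpin is on chromosome 15 at 73254815 to 73254882, in an intron of Ptk2, the gene of focal adhesion kinase, and it also lies within an intron of the antisense gene 1700085D07Rik on the other strand. Both host genes thus encode proteins of focal adhesions.

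The mature sequences below show how close the miR-28a arms are to those relatives that had a matched sequence. Reads of near-identical miRNAs can be counted for one another. They were taken from RefSeq (GRCm38.p6), which matched 2 of the 4 arms, those of miR-28a, and 3 of the 4 relatives by name. The miR-151 arms had no match, so their closeness to the miR-28a arms is not shown. Whether reads were counted between miR-151-5p and miR-28a-5p was not tested. Each is written 5′ to 3′, with the seed in capitals.
mmu-miR-28a-5p: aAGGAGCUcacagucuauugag
mmu-miR-708-5p: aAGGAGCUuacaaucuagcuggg
mmu-miR-28b: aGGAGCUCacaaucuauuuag
mmu-miR-28a-3p: cACUAGAUugugagcugcugga
mmu-miR-708-3p: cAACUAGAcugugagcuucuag

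miR-28a-5p has the seed AGGAGCU, which 1 other of 1679 RefSeq mature miRNAs shares, miR-708-5p. These miRNAs begin with the same 8 bases and agree at 16 of 22 positions. The first difference, counted from the 5′ end of miR-28a-5p, is C9U. miR-28b carries the same letters 1 base nearer its 5′ end, so its own seed is GGAGCUC, and it differs from miR-28a-5p at 2 of 21 aligned positions (G13A and G20U). The seed of miR-28a-3p, ACUAGAU, was found in no other of these 1679 sequences. miR-28a-3p and miR-708-3p agree at 17 of 21 positions when shifted by 1 base, which gives them different seeds.

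Total counts of the libraries were 1281032 to 2606630. Levels are depth-scaled counts (CPM) on the TMM scale, where a trimmed mean of ratios brings libraries to 1 common level. Fold changes put neonatal over adult and are on the log2 scale. The TMM factor lay between 1.16 and 1.30 for neonatal and between 0.788 and 0.812 for adult libraries. Plain library totals move the median log2 fold change of all miRNAs up by 0.63. A direction that depends on this choice is named as such. In bulk samples, fewer cells of a type and less RNA per cell cannot be told apart. A list of 24 miRNAs marks other cells (erythroid, myeloid, endothelial, stromal, muscle, liver and epithelial cells). They took 0.549% to 0.709% of neonatal and 0.372% to 0.404% of adult counts, with none at 0 in all libraries. Epithelial miRNAs made up most of this and overlapped between the groups (0.349% to 0.393% and 0.310% to 0.360%), as did myeloid ones. The other lists lay higher in every neonatal library. Muscle and liver miRNAs took 0.0876% to 0.206% against 0.0199% to 0.0328%, and erythroid ones 0.0356% to 0.0998% against 0.009485% to 0.0202%. Endothelial ones took 0.0162% to 0.0185% against 0.00375% to 0.00607%, and stromal ones 0.0132% to 0.0221% against 0.00299% to 0.00662%. Of the 16 with enough counts to test, edgeR called 9 higher in neonatal libraries (3 of 3 erythroid, 2 of 2 endothelial, 3 of 3 stromal and 1 of 3 muscle and liver miRNAs) and 3 lower (3 of 5 epithelial ones). The 7 listed miRNAs of T lymphocytes took 9.02% to 9.73% of neonatal and 12.4% to 17.95% of adult counts, and 6 were called lower and 0 higher. Over all 375 miRNAs tested, 109 were called higher and 128 lower. All these calls are on the TMM scale, while the shares are of library totals. With library totals 186 of the 375 were called higher and 68 lower, and calls on the lists are not given for that scale. The part of other cells in the values below was not tested.

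miR-151-5p, the scarce arm of the miR-151 hairpin, was more abundant in neonatal cells, while its partner arm was close to level on the TMM scale. It stood at 85.9, 58.0, 23.1 and 81.2 CPM in the numbered neonatal libraries (1 to 4), and at 15.5, 8.40, 12.4 and 17.1 CPM in the adult ones. All neonatal libraries lay above all adult ones, with neonatal library 3 closest to them. The mean was 62.0 ± 28.7 CPM (SD, n = 4) for neonatal and 13.3 ± 3.83 CPM (SD, n = 4) for adult libraries, a log2 fold change of 2.21 ± 0.39 (SE), or 4.62-fold. These levels rest on 53 to 227 counts in neonatal and 12 to 34 counts in adult libraries. The coefficient of variation, the SD over the mean, was 46.2% among neonatal libraries, where counting error alone gives about 8.21%. In adult libraries the coefficient was 28.7%, against 21.3% from counting. The direction was the same with library totals (76.6 ± 34.9 and 10.7 ± 3.18 CPM).

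miR-151-3p, the main arm of the hairpin, stood at 846, 859, 863 and 877.5 CPM in neonatal libraries 1 to 4, while the adult ones, in the same order, had 997, 836, 850.5 and 887 CPM. The 4 neonatal values lay within the adult range. The means were 861 ± 12.85 and 893 ± 72.9 CPM (SD, n = 4 each), with a log2 fold change of -0.05 ± 0.13 (SE). The neonatal coefficient of variation of 1.49% was below the 2.20% that counting error gives. With library totals this arm was higher in neonatal libraries (1073 ± 44.2 against 717 ± 61.9 CPM) and the groups no longer overlapped, with a log2 fold change of 0.58 ± 0.12 (SE).

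In the miR-28a hairpin the main arm differed in the other direction. miR-28a-3p stood at 893, 782, 897 and 732 CPM in neonatal libraries 1 to 4, while the adult ones had 1727, 1100, 1526 and 1262 CPM. All neonatal libraries lay below all adult ones. The means were 826 ± 82.4 and 1404 ± 278 CPM (SD, n = 4 each), a log2 fold change of -0.77 ± 0.16 (SE), or 0.588-fold. This difference rests on the scaling: with library totals the neonatal level was 1033 ± 153 CPM and the adult one 1128 ± 229 CPM, the groups overlapped, and the log2 fold change was -0.13 ± 0.17 (SE).

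miR-28a-5p, the arm with the seed shared with miR-708-5p, had nearly the same mean in both groups. Its levels were 432, 394.5, 479 and 577 CPM in neonatal libraries 1 to 4, while the adult ones had 486, 442, 563 and 376 CPM. The groups overlapped over most of their range. The means were 471 ± 78.8 and 467 ± 78.2 CPM (SD, n = 4 each), with a log2 fold change of 0.01 ± 0.17 (SE). With library totals miR-28a-5p was higher in neonatal libraries (584 ± 78.0 against 375 ± 63.3 CPM, log2 fold change 0.64 ± 0.16 SE), and the groups did not overlap.

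Of the 4 arms 2 passed edgeR's quasi-likelihood test (Benjamini-Hochberg adjusted p under 0.05), miR-151-5p as higher and miR-28a-3p as lower, where 63.2% of all 375 tested miRNAs were called. The same 2 arms had groups that did not overlap, as 57.3% of the tested miRNAs did. The median log2 fold change of all tested miRNAs was -0.05. By mean level the arms ranked 75 (miR-28a-3p), 83 (miR-151-3p), 100 (miR-28a-5p) and 205 (miR-151-5p) of the 375. Library kits ligate adapters with sequence preferences, so ranks between miRNAs are approximate.

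**Figure D1:**
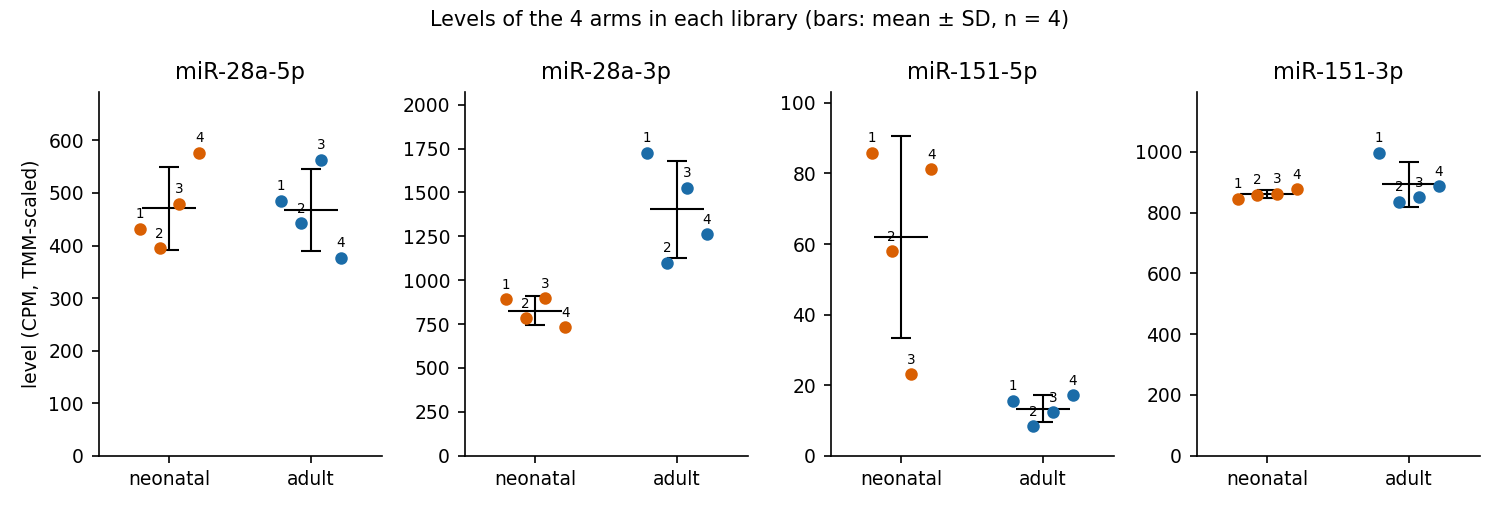
Levels in CPM after TMM scaling (vertical axis, from 0, on a scale of its own in each panel) of the 4 arms in neonatal (orange) and adult (blue) libraries, numbered 1 to 4, with mean ± SD (n = 4) as black bars. miR-151-5p was higher in every neonatal library, miR-28a-3p lower in every neonatal library, and the other two arms overlapped.

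**Figure D2:**
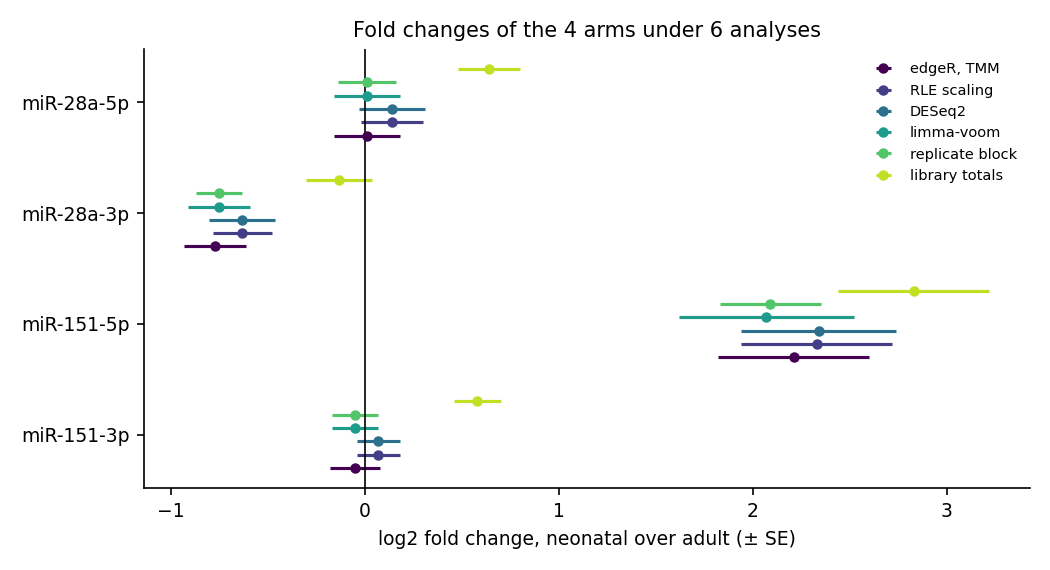
Log2 fold change, neonatal over adult, with SE (horizontal axis) of each arm under edgeR with TMM scaling, RLE scaling, DESeq2, limma-voom, the replicate number as a block, and library totals. Library totals move all 4 arms to the right, to 0.64 for miR-28a-5p, -0.13 for miR-28a-3p, 2.83 for miR-151-5p and 0.58 for miR-151-3p, and miR-151-5p lies above 0 in each.

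The ratio of the arms within a library does not depend on how libraries are scaled, and in both hairpins it lay nearer to the 5p arm in neonatal cells. In the miR-151 hairpin the 5p arm took 9.22%, 6.32%, 2.61% and 8.47% of the hairpin's count in neonatal libraries 1 to 4. In adult libraries 1 to 4 it took 1.52%, 0.994%, 1.43% and 1.89%. Neonatal library 3, the lowest of its group, had a 95% Wilson interval of 2.00% to 3.39%, and adult library 4, the highest of its group, one of 1.35% to 2.63%. These intervals overlap, so the gap between the nearest libraries of the groups is within counting error, while the other 3 neonatal libraries had lower bounds of 5.42% or more. Intervals and the limit for a count of 0 cover only counting error, because PCR copies of a molecule are not told apart here. Put the other way, there were 9.85 to 37.4 counts of the 3p arm for each of the 5p arm in neonatal libraries, and 52.0 to 99.6 in adult libraries.

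The mean share was 6.65% ± 2.96 in neonatal and 1.46% ± 0.367 in adult libraries (SD, n = 4 each). On the scale of log2(5p/3p), the mean was -3.96 ± 0.87 in neonatal and -6.08 ± 0.37 in adult libraries, a difference of 2.12 ± 0.38 (SE), or 4.35-fold. The sum of both arms was 923 ± 30.4 CPM for neonatal and 906 ± 75.4 CPM for adult libraries, so that with TMM scaling the hairpin's total overlapped between the groups while its composition did not. With library totals the sum was higher in neonatal libraries (1149 ± 38.45 against 727.5 ± 64.2 CPM).

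In the miR-28a hairpin the 5p arm took 32.6%, 33.5%, 34.8% and 44.1% of the count in neonatal libraries 1 to 4. Its share was 22.0%, 28.7%, 27.0% and 23.0% in the adult ones, in the same order. All neonatal libraries lay above all adult ones, and neonatal library 4 stood above the other three of its group. The nearest libraries of the groups were neonatal library 1, with a Wilson interval of 30.8% to 34.5%, and adult library 2, with one of 26.8% to 30.6%, and these did not overlap. The mean share was 36.3% ± 5.29 in neonatal and 25.1% ± 3.18 in adult libraries (SD, n = 4 each). The log2(5p/3p) was -0.82 ± 0.32 and -1.58 ± 0.24, a difference of 0.76 ± 0.21 (SE), or 1.69-fold.

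Here the sum of both arms was 1296 ± 85.3 CPM for neonatal and 1871 ± 330 CPM for adult libraries with TMM scaling, and the groups did not overlap. With library totals the sums were 1616 ± 156 and 1502 ± 272 CPM, and they overlapped. Whether the miR-28a hairpin as a whole was lower in neonatal cells thus depended on the scaling, while the order of its arm shares did not. The 3p arm was the more abundant one of both hairpins in all 8 libraries.

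**Figure D3:**
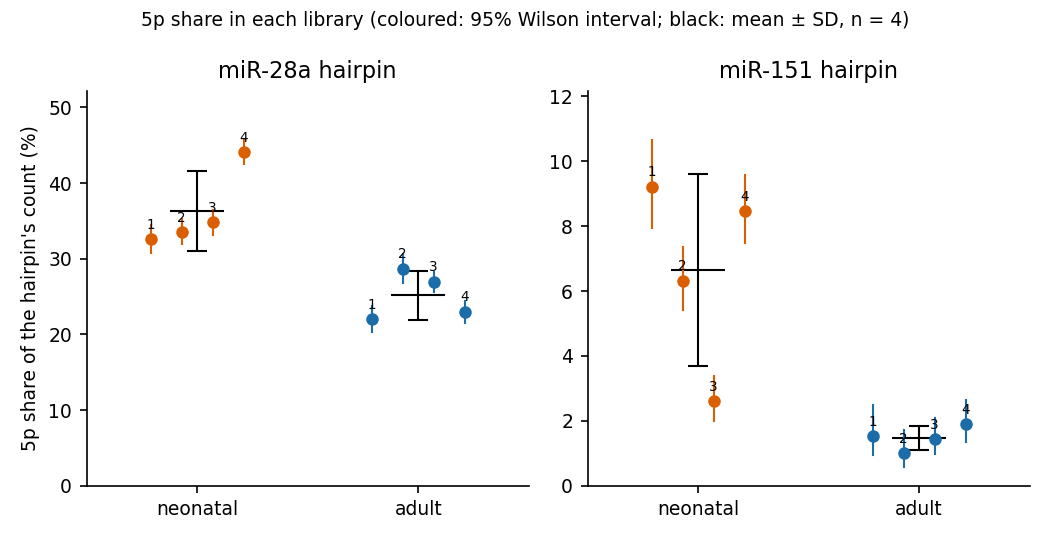
Share of the hairpin's count held by the 5p arm, in percent (vertical axis, from 0), for miR-28a (left) and miR-151 (right) in each numbered library, with its 95% Wilson interval (coloured line) and the group's mean ± SD (black). Neonatal libraries lie at 32.6% to 44.1% for miR-28a and 2.61% to 9.22% for miR-151, above the adult libraries at 22.0% to 28.7% and 0.994% to 1.89%.

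Replicate numbers were shared by the groups. Across the groups, libraries 1 and 3 and libraries 2 and 4 deviated together, so the ratios were also computed within these sets. This was weak in part: for unlike numbers the correlation r was 0.107 to 0.482 within the sets, against -0.533 to -0.110 between them. The log2 difference of miR-151 was 1.77 ± 0.61 (SE) in libraries 1 and 3 and 2.47 ± 0.35 in libraries 2 and 4. That of miR-28a was 0.66 ± 0.21 in libraries 1 and 3 and 0.86 ± 0.28 in libraries 2 and 4. The sets were chosen after seeing the data. Because the groups did not overlap for either hairpin, the direction had to be the same in both sets. The calls of both hairpins were lost in libraries 1 and 3, where each group had 2 libraries. With a term for the replicate number (a block) the differences were 2.12 ± 0.29 for miR-151 and 0.76 ± 0.20 for miR-28a.

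Arm ratios could be computed for 102 hairpins with both arms past the count filter. Both hairpins described here were called by limma at a Benjamini-Hochberg adjusted p under 0.05, where 43.1% of all hairpins were called, and 21.6% were called towards the 5p arm in neonatal libraries. The groups did not overlap for either, as for 39.2% of all hairpins. The median difference over all hairpins was -0.20, with quartiles of -0.65 and 0.49, and 43 of the 102 had a ratio nearer to 5p in neonatal libraries. Ordered from the largest difference towards 5p, miR-151 ranked 3, after the hairpins of miR-29b-1-5p (2.58 ± 0.36 SE) and miR-505-5p (2.26 ± 0.58 SE), which are named after their values were seen. miR-28a ranked 21. By size in either direction miR-151 ranked 3 and miR-28a 44.

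In both miR-151 and miR-28a the difference lay towards the minor arm. Of the 41 hairpins whose 3p arm was the more abundant one over all libraries, 25 had a ratio nearer to 5p in neonatal libraries, with a median difference of 0.19, and 13 were called towards 5p and 5 towards 3p. Of the 61 hairpins whose 5p arm was the more abundant one, 43 had a ratio nearer to 3p, with a median difference of -0.37, and 17 were called towards 3p and 9 towards 5p. Over all 102 hairpins 68 had a ratio nearer to their minor arm in neonatal libraries.

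**Figure D4:**
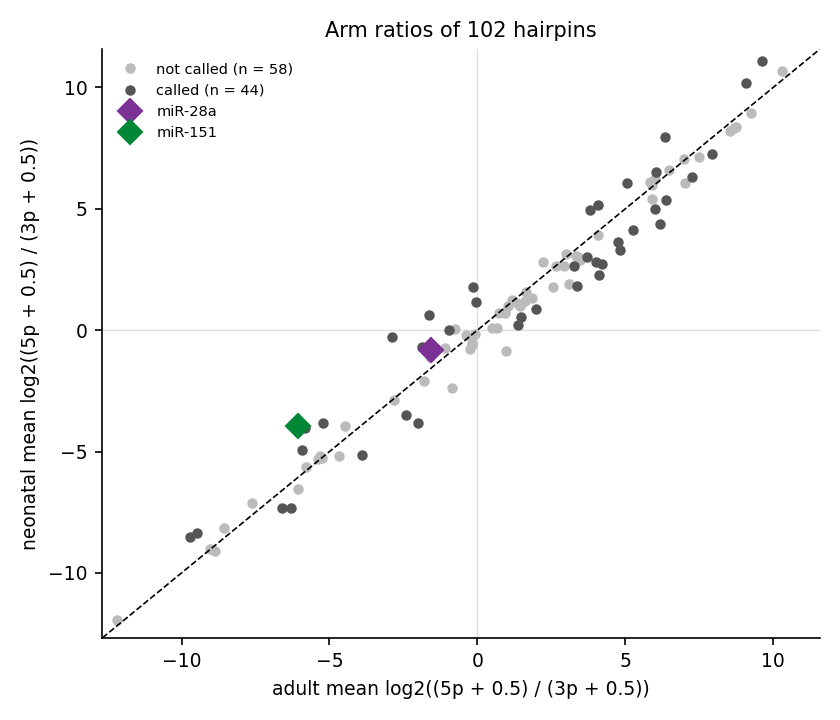
Mean log2 of the 5p over the 3p count (0.5 added to each) in adult (horizontal axis) and neonatal libraries (vertical axis), for each of 102 hairpins, with the 44 called hairpins in dark grey and equal ratios on the dashed line. miR-28a (purple diamond) and miR-151 (green diamond) lie in the lower left, where the 3p arm is the more abundant one, and above the line.

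The relatives by name outside these hairpins gave almost no reads in CD8+ T cells, and none had enough counts to test (0 of 4). miR-28b had no count in any of the 8 libraries. For a count of 0, about 3 counts were taken as the 95% upper limit, or 1.15 to 2.34 CPM per library before scaling. miR-28c, in an intron of Samd12, had 0.5 of a count in adult library 3 and none elsewhere. miR-708, in an intron of Tenm4, had at most 2 counts for the 5p and 4 counts for the 3p arm in any library. The counts of miR-28a-5p were fractional in 6 of 8 libraries, and how the fractions arose is not given in the labels. Those of miR-28a-3p and of miR-151-5p were fractional in 1 library each, and those of miR-151-3p in none. With counts this low in the relatives, the seed AGGAGCU was represented in these libraries almost wholly by miR-28a-5p, among the miRNAs with a matched sequence.

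The 2 arms of a hairpin were not among the closest in pattern over the libraries. Likeness was measured as the root mean square difference of log2 CPM over the 8 libraries after centring each miRNA on its own mean, among 304 miRNAs with at least 10 CPM on average. For the 2 arms of a hairpin this distance is nearly the spread of their ratio over the libraries, so it restates the arm ratios above. miR-28a-3p ranked 102 for likeness to miR-28a-5p, at a distance of 0.455, and miR-151-3p ranked 136 for likeness to miR-151-5p, at 1.2. Other miRNAs lay at a median distance of 1.28 from miR-151-5p. In the other direction, miR-28a-5p ranked 89 for likeness to miR-28a-3p and miR-151-5p ranked 276 for likeness to miR-151-3p. The median distance of other miRNAs from miR-151-3p was 0.54. Across the hairpins, miR-28a-5p and miR-151-3p were closer, at 0.214, where the median distance of other miRNAs from miR-28a-5p was 0.57. miR-151-3p ranked 6 for likeness to miR-28a-5p, and miR-28a-5p ranked 22 for likeness to miR-151-3p.

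The miRNAs named from here on were picked for their likeness on the TMM scale, so group means like those of the arm follow from that choice. Their levels and fold changes are on that scale, and their direction with library totals is not given. The miRNAs most like miR-28a-5p were miR-22-3p (0.117), miR-15b-3p (0.179) and miR-25-3p (0.190). Those most like miR-151-3p were miR-671-3p (0.107), miR-25-3p (0.126) and miR-22-3p (0.127), so that miR-22-3p and miR-25-3p stood on both lists. Their log2 fold changes were -0.08 ± 0.14 and 0.16 ± 0.12 (SE), with miR-22-3p at 456 ± 41.65 and 481 ± 59.0 CPM and miR-25-3p at 32020 ± 792 and 28670 ± 2531 CPM in neonatal and adult libraries (SD, n = 4 each).

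miR-28a-3p was most like let-7e-5p (0.0825), miR-342-3p (0.110) and miR-320-3p (0.119). miR-342-3p, known from lymphocytes, stood at 2936 ± 291 CPM for neonatal and 4851 ± 1452 CPM for adult libraries, and miR-320-3p, whose hairpin is made without Drosha, at 1121 ± 210 and 1880 ± 309 CPM (SD, n = 4 each). For miR-151-5p the nearest were miR-3079-5p (0.5), miR-18b-3p (0.568) and miR-501-3p (0.619), which are farther away than the nearest of the other arms. miR-151-5p had 12 to 34 counts in adult libraries and a coefficient of variation of 46.2% in neonatal ones. The part of this in its distances was not tested. miR-501-3p stood at 548 ± 29.4 and 194 ± 30.2 CPM and miR-3079-5p at 33.25 ± 7.21 and 9.91 ± 2.30 CPM in neonatal and adult libraries (SD, n = 4 each).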

How the data were processed

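The single deposited table holds the authors' estimated counts, without normalization, in 2128 rows for 1978 mature miRNAs. Reads were placed on mm10, per the submitters' processing notes, while aligner, counter and miRNA release were not given in the sources used here. Values above 0 were whole, within 0.001, in 71.4% of cases. Per the labels' protocols, RNA was extracted with Trizol and libraries were made with the NEBNext small RNA kit from size-selected inserts.

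For each mature miRNA, counts were added over precursors and rounded. The 375 miRNAs kept by filterByExpr (minimum count 10, minimum total 15) went into edgeR 4.0.16 under R 4.3.3 (quasi-likelihood F test, TMM, age group as the only term, Benjamini-Hochberg adjustment at 0.05). An SE is the fold change divided by the root of F. Arm ratios, log2((5p + 0.5)/(3p + 0.5)), were fitted with limma 3.58.1 with a trend on abundance. Both fits were tested on simulated data. Hairpin positions came from RefSeq genes and were the same in GENCODE, the source of the host genes. The members, lists and tests were chosen with earlier results of these data known. Named miRNAs were the 4 arms, their relatives by name or seed, and the 3 most alike in pattern to each arm. The pair of hairpins with larger arm differences than miR-151 was added after the values were seen. Total counts of 1281032 to 2606630 make 1 count 0.384 to 0.781 CPM. Same-numbered libraries deviated together (r = 0.256 to 0.415 in the 4 pairs, each above 0.1). On this evidence only, the replicate number was used as a block in an alternative fit, and the main fits have no such term. Unlike-numbered libraries reached r = 0.482, so these values do not single out the same-numbered pairs. Alternatives included DESeq2 1.42.0, limma-voom, other scalings, filters, a block for the replicate number and a GC offset.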

Additional observations from a re-analysis of the deposited data

How the results depend on the processing

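With library totals in place of TMM scaling, miR-28a-5p (0.64) and miR-151-3p (0.58) became called as higher, and miR-28a-3p (-0.13) lost its call. Then 73.2% of the called miRNAs were higher in place of 46.0%. The number of hairpins called fell from 44 to 26 where both arms needed a mean of 100 counts, which left 43 hairpins and no value for miR-151. In libraries 1 and 3 alone, a set chosen after seeing the data, 25 hairpins were called, and miR-28a (0.66) and miR-151 (1.77) lost their calls on the arm ratio. No other call on the 4 arms or 2 hairpins changed with the alternatives run, the replicate block included (2.09 for miR-151-5p and -0.75 for miR-28a-3p). When each library was left out in turn, the log2 fold change was 2.06 to 2.50 for miR-151-5p, -0.81 to -0.61 for miR-28a-3p, -0.03 to 0.16 for miR-28a-5p and -0.04 to 0.04 for miR-151-3p, and the arm difference 1.90 to 2.54 for miR-151 and 0.60 to 0.85 for miR-28a. The counts of calls were then 220 to 253 miRNAs and 39 to 44 hairpins. The GC offset covered 314 of 375 miRNAs, the miR-28a arms among them and the miR-151 arms not. The adult level of miR-151-5p, at 12 to 34 counts, is limited by depth.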
